A study of Mus musculus with 6 samples.

Results

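Tuft cells are rare chemosensory cells of the gut epithelium, and 10 genes used to recognise them were followed here: Pou2f3, Gfi1b, Trpm5, Plcg2, Il25, Il17rb, Alox5ap, Dclk1, Sh2d6 and Avil. They were taken by symbol from a table of 17256 genes, and all 10 were found. The table covers 6 RNA-seq libraries from C57BL/6 mice, made from epithelium of the antrum, the part of the stomach next to the duodenum. In 3 of them, atrophic gastritis had been induced with MNNG and a drug written as Ranitine for 20 weeks and PEEPA-P5 was given by gavage for 2 weeks. The other 3 had the same induction and 2 weeks of vehicle. MNNG is an alkylating carcinogen, and PEEPA-P5 is a code name. No library without MNNG and Ranitine was analysed here, so both groups come from the gastritis model. Age and sex are not given, and whether each library is a different mouse is not stated.

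Tuft cells sense luminal compounds with parts of the taste pathway. Ligand binding releases calcium through phospholipase C, calcium opens the channel TRPM5, and the depolarised cell secretes acetylcholine, eicosanoids and interleukin 25. In the mouse intestine interleukin 25 acts on group 2 innate lymphoid cells, whose interleukin 13 in turn makes the epithelium form more tuft and goblet cells. POU2F3 is the transcription factor that the lineage requires, and it binds an octamer, ATGCAAAT, through its POU domain. In bulk tissue a lower value can mean fewer tuft cells or less RNA per cell, which cannot be told apart.

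Promoters are shown for Avil, which stood apart from the rest in level, and for Trpm5 and Sh2d6, which varied together, because the octamer is the known target of the lineage's own factor. Each is the 250 bases before the RefSeq start of the gene in build GRCm38.p6, a later build than the mm9 listed by the submitters, read 5′ to 3′ on the gene's strand. Capitals mark the core ATGCAAA or its reverse complement TTTGCAT.
Avil, chr10:127000459-127000708, plus strand: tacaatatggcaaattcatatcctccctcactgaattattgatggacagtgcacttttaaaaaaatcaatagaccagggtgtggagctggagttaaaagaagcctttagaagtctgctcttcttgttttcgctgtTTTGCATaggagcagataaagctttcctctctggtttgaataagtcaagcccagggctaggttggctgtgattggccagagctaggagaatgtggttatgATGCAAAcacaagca
Trpm5, chr7:143094643-143094892, minus strand: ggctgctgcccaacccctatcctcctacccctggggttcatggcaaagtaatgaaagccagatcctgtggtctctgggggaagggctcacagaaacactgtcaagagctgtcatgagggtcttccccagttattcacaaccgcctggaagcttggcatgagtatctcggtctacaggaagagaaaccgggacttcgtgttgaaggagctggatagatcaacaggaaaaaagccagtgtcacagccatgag
Sh2d6, chr6:72520037-72520286, minus strand: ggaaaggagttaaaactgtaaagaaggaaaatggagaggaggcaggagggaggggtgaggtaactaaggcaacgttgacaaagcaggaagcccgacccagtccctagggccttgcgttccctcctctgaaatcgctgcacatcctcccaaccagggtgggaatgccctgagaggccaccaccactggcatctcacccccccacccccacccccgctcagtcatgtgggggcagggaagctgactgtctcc
The full octamer ATGCAAAT, searched on both strands, was in 0 of the 8 windows that RefSeq gives for 7 of the 10 genes and in 1.6% of 32851 windows of the same length. Its first 7 letters, ATGCAAA, which every octamer match also holds, were in 4.12% of all windows. Among the tuft genes they were found in Avil alone, once on each strand, starting 15 bases (position -15) and 115 bases (position -115) before the gene's start. Windows with 2 or more such matches made up 0.247% of the total. The matches are letters in a window, not measured binding. No window was found for Pou2f3, Il25 or Alox5ap.

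Total counts ran from 16388852 to 16903559 per library, and 13071 genes passed the filter on low counts. Library 3 of the PEEPA-P5 group, PEEPA-P5 3, was the lowest of the 6 libraries in 31.4% of tested genes, and in 28.6% it was the highest. These shares were not computed singly for the other libraries. In PEEPA-P5 3 the mean of fibroblast, endothelial, smooth muscle, macrophage and enteroendocrine markers lay at -2.66 to -1.76 log2 units relative to the mean of the 6 libraries. Values without PEEPA-P5 3 are given for the tuft genes. Vehicle 3 was extreme in other lists, with chief cell markers at 2.73 and parietal cell markers at 3.02 log2 units. The enteroendocrine gene Gast was at 48.0 CPM in PEEPA-P5 3 and 135 CPM in vehicle 3, against 1004 to 1859 CPM in the other libraries. Summed epithelial markers were at 14184 to 14737 TPM with PEEPA-P5 and 9562 to 13570 TPM with vehicle. Parietal cell markers, typical of the gastric body, summed to 35.7 to 524 TPM with PEEPA-P5 and 627 to 3787 TPM with vehicle, and their part in the tuft gene values was not tested. The groups overlapped in Atp4a, the highest of these markers in CPM, at 384 CPM in PEEPA-P5 2 and 366 CPM in vehicle 1. Of the 13071 genes, 0 passed an adjusted p under 0.05 in edgeR's quasi-likelihood test, or 0%, and 1576, or 12.1%, had an unadjusted p under 0.05. DESeq2 called 110 of the 13190 genes to which it gave an adjusted p, or 0.834%.

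Of the 10 tuft genes, 8 passed the filter and 0 of these 8 passed an adjusted p under 0.05 with edgeR or DESeq2. At an unadjusted p under 0.05 the count was also 0 of 8, where 6.14% of tested genes were lower and 5.92% higher by that rule. Trpm5, Alox5ap, Pou2f3, Plcg2, Sh2d6, Dclk1 and Il17rb had a negative fold change with PEEPA-P5, as did 50.6% of all tested genes, and Avil had a positive one. The median log2 fold change of the 8 was -0.32, and that of all tested genes was -0.00. The median of the 8 was -0.04 without PEEPA-P5 3, -0.02 without vehicle 1 and -0.80 without PEEPA-P5 2. In 0 of the 8 were the groups separate, whereas in 10.7% of tested genes every PEEPA-P5 library lay below every vehicle library and in 9.74% above, together 20.4%. The smallest exact two-sided permutation p on log2 CPM was 0.2, and the design allows none under 0.1.

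**Figure D1:**
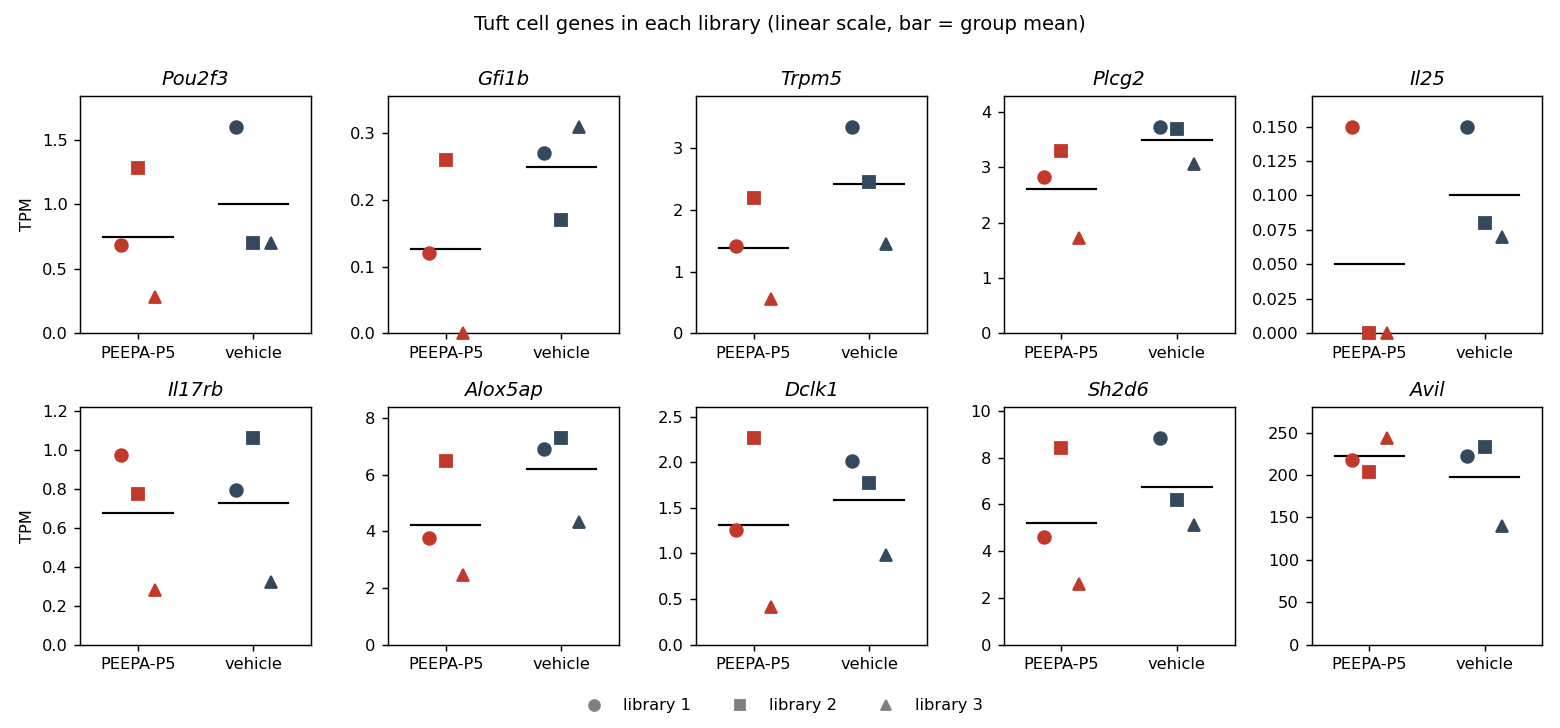
Level of each of the 10 tuft cell genes in TPM (vertical axis, linear from 0, own scale per gene) in the 3 PEEPA-P5 and 3 vehicle libraries, with a bar at each group's mean. Library 3 of the PEEPA-P5 group was lowest for every gene except Avil, where it was highest at 244 TPM, and tied with library 2 at 0 for Il25.

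Avil (Entrez 11567) encodes advillin, an actin-binding protein of the villin family that marks tuft cells in the intestine. It had 218, 204 and 244 TPM in the 3 PEEPA-P5 libraries, against 222, 233 and 140 TPM in the 3 vehicle libraries. Averaged over the 6 libraries it stood at 210 ± 36.7 TPM (SD), rank 441 of the 17256 genes, and was 10.8 times the other 9 tuft genes added together, which came to 19.4 TPM. Vehicle 3 lay below the other 5 libraries, and the groups overlapped. Its log2 fold change was 0.29 with a standard error of 0.18 (edgeR adjusted p 0.519), 0.15 without PEEPA-P5 3 and 0.00 without both libraries numbered 3.

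Avil stood far above the level of the other genes, while its relation to them depended on the libraries used. Over the 6 libraries, which share depth and group, its log2 CPM had Pearson r from -0.72 to -0.41 with Trpm5, Dclk1, Pou2f3, Sh2d6, Alox5ap and Plcg2. Without PEEPA-P5 3 these r ran from -0.19 to 0.56, with a median of 0.22. Without both libraries numbered 3 they ran from -0.62 to 0.01, with a median of -0.24. The sign of the relation thus changed with the libraries used. Against the mean of 6 epithelial markers (Epcam, Cdh1, Krt8, Krt18, Krt19 and Cldn18) its r was 0.88 and Spearman's rho 0.83, and without PEEPA-P5 3 0.77 and 0.70. Relations as large, with a negative sign, were seen with other lists. Against chief cell markers its r was -0.91, and -0.82 without PEEPA-P5 3. Against parietal cell markers its r was -0.88, and -0.76 without PEEPA-P5 3. With the tuft transcription factor list its r was -0.19 and rho 0.09 over 6 libraries, and 0.86 and 0.90 without PEEPA-P5 3. These values describe 6, 5 or 4 libraries and were given no test. Exons of Avil share 165 bases with Tsfm on the other strand, 4.86% of its exon bases, and Tsfm stood at 16.6 to 31 TPM. As strand is not stated, reads in those bases cannot be assigned.

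Pou2f3 (Entrez 18988), the transcription factor that specifies the lineage, had 27, 49 and 12 counts in the PEEPA-P5 libraries, against 65, 28 and 28 counts in the vehicle libraries. Vehicle 1 exceeded every other library, and vehicle 2 and vehicle 3 lay within the PEEPA-P5 range. It averaged 0.747 ± 0.503 TPM with PEEPA-P5 and 1.00 ± 0.520 TPM with vehicle (SD, n = 3 each), a log2 fold change of -0.40 with a standard error of 0.57 (edgeR adjusted p 0.771). Without vehicle 1 it was 0.10, and without PEEPA-P5 3 it was -0.06.

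Gfi1b (Entrez 14582), a zinc-finger repressor also known from platelet and red cell precursors, had 3, 7 and 0 counts in the PEEPA-P5 libraries, against 7, 4 and 8 counts in the vehicle libraries. It did not pass the filter. The sums were 10 counts with PEEPA-P5 and 19 with vehicle, and the library with 0 counts allows a level of up to 0.202 CPM at 3 counts. Without a filter its log2 fold change was -0.86 (edgeR adjusted p 0.704). Floors of this kind cover counting error only.

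Among the signalling genes, Trpm5 (Entrez 56843), the calcium-activated cation channel of taste and tuft cells, had the largest fold change of the 8. It had 96, 147 and 38 counts with PEEPA-P5, against 229, 162 and 99 counts with vehicle. The lowest library was PEEPA-P5 3 and the highest vehicle 1, but PEEPA-P5 2 lay above vehicle 3. Its means were 5.64 ± 3.02 CPM in PEEPA-P5 libraries and 9.42 ± 3.46 CPM in vehicle libraries. The log2 fold change was -0.74 with a standard error of 0.46 and a 95% interval from -1.82 to 0.35 (edgeR adjusted p 0.521, exact permutation p 0.2). Without PEEPA-P5 3 it was -0.39. Without PEEPA-P5 2, the highest PEEPA-P5 library for Trpm5, it was -1.17 (edgeR unadjusted p 0.0477, adjusted p 0.391). Its exons share 220 bases with Tssc4 on the other strand.

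Plcg2 (Entrez 234779), a phospholipase C also used by B cells and myeloid cells, was the steadiest of the low genes. Counts were 194, 227 and 121 with PEEPA-P5, against 260, 245 and 213 with vehicle. PEEPA-P5 3 was the lowest, and PEEPA-P5 2 lay inside the vehicle range on the CPM scale, at 13.3 CPM against 13.2 CPM in vehicle 2 and 13.6 CPM in vehicle 3. Its means were 11.0 ± 2.62 CPM in PEEPA-P5 libraries and 13.9 ± 0.904 CPM in vehicle libraries, a log2 fold change of -0.34 with a standard error of 0.20 (edgeR adjusted p 0.507). Without PEEPA-P5 3 it was -0.16.

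The cytokine arm was at the edge of detection. Il25 (Entrez 140806), the cytokine of the tuft cell circuit, had 2, 0 and 0 counts with PEEPA-P5, against 2, 1 and 1 counts with vehicle. No library exceeded the 3 counts taken as the floor, so no fold change is given, and a difference was not detectable at this depth. Il17rb (Entrez 50905), a receptor chain for interleukin 25, had 23, 17 and 8 counts with PEEPA-P5, against 19, 24 and 10 counts with vehicle. Library 3 was the lowest in both groups. The log2 fold change was -0.05 with a 95% interval from -1.24 to 1.13 (edgeR adjusted p 0.967), too wide to speak of equal levels. Without PEEPA-P5 3 it was 0.23, and its exons share 141 bases with Actr8 on the other strand.

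Alox5ap (Entrez 11690) encodes FLAP, the protein that presents arachidonic acid to 5-lipoxygenase for leukotriene synthesis, and is also made by myeloid cells. It had 48, 83 and 32 counts with PEEPA-P5, against 89, 90 and 56 counts with vehicle. PEEPA-P5 2 lay among the vehicle libraries and the other PEEPA-P5 libraries below them. In TPM the means were 4.23 ± 2.06 with PEEPA-P5 and 6.19 ± 1.61 with vehicle, and the log2 fold change was -0.45 with a standard error of 0.36 (edgeR adjusted p 0.602). Without PEEPA-P5 3 it was -0.22. An antisense gene, Gm19719, shares 189 of its exon bases, or 13.3%.

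Dclk1 (Entrez 13175), a microtubule-associated kinase, had 147, 273 and 49 counts with PEEPA-P5, against 257, 206 and 119 counts with vehicle. PEEPA-P5 held both the highest and the lowest library, so the spread within that group, 67.7% of its mean as CPM, exceeded the difference. The log2 fold change was -0.25 with a standard error of 0.54 (edgeR adjusted p 0.853), and 0.15 without PEEPA-P5 3. Sh2d6 (Entrez 71130), an adaptor with an SH2 domain, had 91, 168 and 53 counts with PEEPA-P5, against 178, 119 and 103 counts with vehicle. The groups overlapped, with PEEPA-P5 2 under vehicle 1 alone, and the log2 fold change was -0.30 with a standard error of 0.39 (edgeR adjusted p 0.753), or -0.02 without PEEPA-P5 3.

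**Figure D2:**
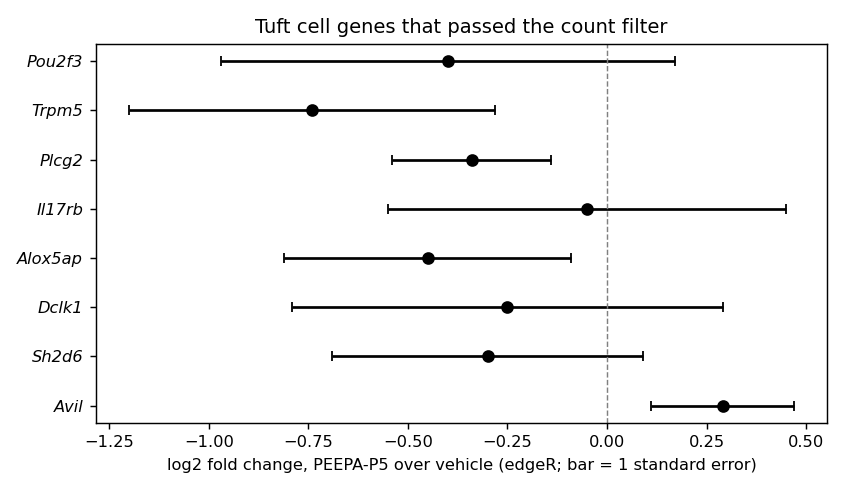
Log2 fold change of PEEPA-P5 over vehicle (horizontal axis) for the 8 tuft cell genes that passed the count filter, with 1 standard error from edgeR on either side. Values run from -0.74 for Trpm5 to 0.29 for Avil, and none passed an adjusted p under 0.05.

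Ordered by mean TPM over the 6 libraries, Avil was followed by Sh2d6 at 5.96, Alox5ap at 5.21, Plcg2 at 3.06, Trpm5 at 1.90, Dclk1 at 1.45, Pou2f3 at 0.873, Il17rb at 0.698, Gfi1b at 0.188 and Il25 at 0.0750 TPM. Neighbours in this order differed by less than the larger of their SDs over libraries for Sh2d6 and Alox5ap, for Trpm5, Dclk1, Pou2f3 and Il17rb, and for Gfi1b and Il25. Avil and Sh2d6, Alox5ap and Plcg2, Plcg2 and Trpm5, and Il17rb and Gfi1b differed by more. The 9 genes other than Avil added up to 15.8, 25.0 and 8.29 TPM in the PEEPA-P5 libraries, against 27.7, 23.4 and 16.4 TPM in the vehicle libraries. Thus PEEPA-P5 2 lay between vehicle 1 and vehicle 2, and PEEPA-P5 1 and 3 lay below all 3.

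Across libraries 6 of the genes moved together. Among Trpm5, Dclk1, Pou2f3, Sh2d6, Alox5ap and Plcg2 the 15 pairwise Pearson r of log2 CPM ran from 0.83 to 0.98, with a median of 0.91. Without PEEPA-P5 3 the range was 0.46 to 0.95 and the median 0.78. Il17rb followed less, with r from 0.45 to 0.71, and from -0.42 to 0.28 without that library. All of these are descriptions over 6 or 5 libraries of both groups.

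The non-member genes with the most similar profile, over the 6 libraries and among 9969 genes with a mean of at least 5 CPM, were Fyb, Slc16a5, Zfp367, Mpeg1, Rgs2 and Nbas, with r from 0.971 to 0.985 against the mean of the 8 tested tuft genes. Fyb, an adaptor of haematopoietic and tuft cells, was at 6.44 ± 3.28 CPM in PEEPA-P5 libraries and 8.73 ± 2.93 CPM in vehicle libraries. Rgs2, a regulator of G protein signalling, was at 6.67 ± 4.39 CPM in PEEPA-P5 libraries and 8.48 ± 2.38 CPM in vehicle libraries, and Mpeg1, a macrophage gene, at 4.95 ± 4.24 CPM in PEEPA-P5 libraries and 7.97 ± 3.28 CPM in vehicle libraries. Fyb and Rgs2 are also on the wider tuft lists described further on, which were written with earlier results of these data known. In all 6 genes the groups overlapped. The r values of these genes were picked as the highest of the 9969 and were not recomputed without PEEPA-P5 3.

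The labels number the libraries 1 to 3 in both groups without saying what the numbers mark. They were taken as pairs for the ratios here, not in the main fit. Trpm5 in CPM was 0.44 times vehicle in pair 1, 0.98 times in pair 2 and 0.40 times in pair 3. Pou2f3 was at 0.44, 1.89 and 0.45 times vehicle in the same pairs, and Sh2d6 at 0.54, 1.53 and 0.54 times. Alox5ap was at 0.56, 1.00 and 0.60 times vehicle, Plcg2 at 0.78, 1.00 and 0.60 times, and Dclk1 at 0.60, 1.43 and 0.43 times. These 6 genes were lower with PEEPA-P5 in pairs 1 and 3, and in pair 2 they were at 0.98 times vehicle or above. Il17rb, at 1.27, 0.77 and 0.84 times vehicle, and Avil, at 1.02, 0.98 and 1.86 times, did not share this order.

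**Figure D3:**
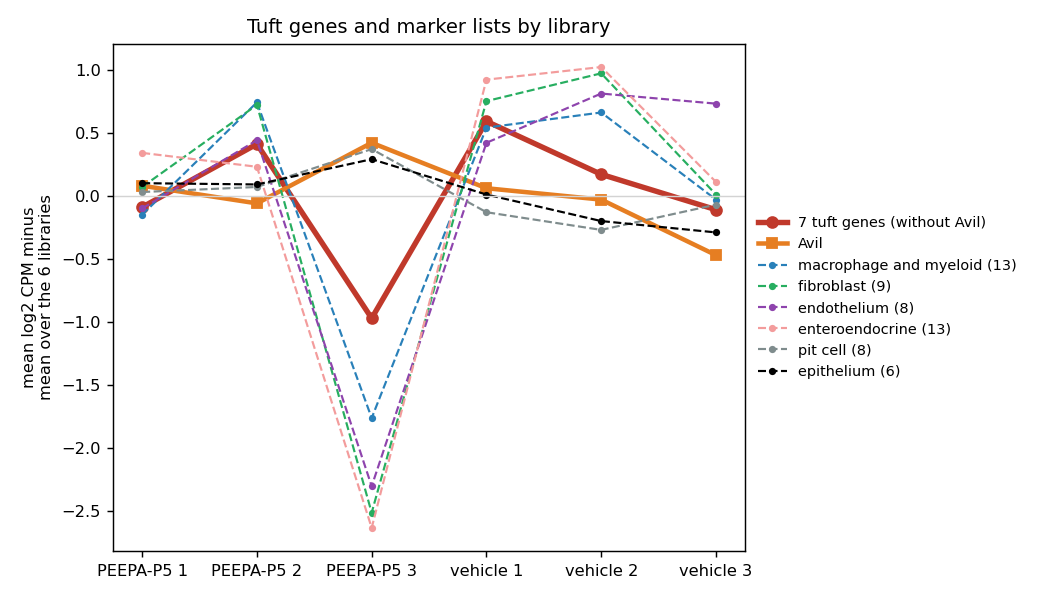
Mean log2 CPM minus the mean over the 6 libraries (vertical axis) for each library (horizontal axis): 7 tuft genes without Avil (thick red), Avil (orange) and 6 marker lists (dashed, with the number of tested genes). The 7 tuft genes reached -0.97 in PEEPA-P5 3, where fibroblast, endothelial, macrophage and enteroendocrine markers were lower still and Avil, pit and epithelial genes were at their highest.

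Markers of some other cells had profiles like that of the tuft genes, to a degree that for several lists depended on PEEPA-P5 3. The mean of the 7 tested tuft genes other than Avil, relative to the 6 libraries, was -0.09, 0.41 and -0.97 log2 units in the PEEPA-P5 libraries, against 0.59, 0.17 and -0.11 in the vehicle libraries. The mean of 13 macrophage and myeloid markers was -0.15, 0.74 and -1.76 with PEEPA-P5, against 0.54, 0.66 and -0.03 with vehicle. Fibroblast markers were at 0.07, 0.72 and -2.51 with PEEPA-P5, against 0.75, 0.97 and 0.01 with vehicle. PEEPA-P5 3 was lowest and PEEPA-P5 2 the highest PEEPA-P5 library in all 3 sets.

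Summed, the 13 myeloid markers came to 11.6 to 79.0 TPM with PEEPA-P5 and 40.3 to 86.1 TPM with vehicle, with 0 of 13 at 0 counts in all libraries. Of these 13, 12 were lower and 1 higher by the sign of the fold change alone, as in the list counts that follow, 0 passed an adjusted p under 0.05 with edgeR, and the median log2 fold change was -0.55. Lyz2, a macrophage lysozyme, was the highest of them in CPM, at 9.49 ± 7.92 CPM in PEEPA-P5 libraries and 15.8 ± 4.73 CPM in vehicle libraries. Over the 6 libraries the tuft mean had r 0.96 and rho 0.77 with the myeloid mean and r 0.94 and rho 0.83 with the fibroblast mean, and without PEEPA-P5 3 r was 0.81 and 0.76. With smooth muscle markers r was 0.95 and rho 0.71, and 0.80 and 0.50 without PEEPA-P5 3. With mast cell and basophil markers r was 0.83 and rho 0.89, and 0.82 and 0.80 without PEEPA-P5 3. With enteroendocrine markers r was 0.90 and rho 0.71, and 0.52 and 0.50 without PEEPA-P5 3. With endothelial markers r was 0.85 and rho 0.31, and 0.11 and -0.20 without it. The part of these cells in the tuft gene values was not tested.

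Markers of immune cells, platelet and red cell precursors and nerves were checked because such cells use some of the same genes. Of 9 B and plasma cell markers 7 were in the table and 1, Jchain, was tested, at 8.22 ± 9.26 CPM in PEEPA-P5 libraries and 19.1 ± 14.0 CPM in vehicle libraries. Of 13 markers of group 2 innate lymphoid and T cells 4 were tested, 3 lower and 1 higher, with a median of -0.73. Among the untested ones Gata3, Cd3e and Klrg1 had at most 3, 2 and 2 counts in a library, and Il7r, Cd3g and Cd4 at most 9, 5 and 11. For Il7r and Cd3g every PEEPA-P5 library lay below every vehicle library, as in 10.7% of tested genes. The means of Cd3e, Cd3d and Klrg1 were slightly higher with PEEPA-P5. The 1 higher tested gene was Areg, which encodes an epidermal growth factor receptor ligand that epithelium makes too. Of 10 megakaryocyte and erythroid markers 5 were tested, 3 lower and 2 higher, with a median of -0.86, led by the globin Hba-a1 at 5.09 ± 1.91 CPM in PEEPA-P5 libraries and 19.2 ± 10.8 CPM in vehicle libraries. Of 9 mast cell and basophil markers 6 were tested, 2 lower and 4 higher, with a median of 0.58, led by Mcpt2. Of 13 neuron and glia markers 6 were tested, 4 lower and 2 higher, with a median of -0.47, led by Snap25. Each list is named with its highest gene in CPM, and none of these markers passed an adjusted p under 0.05 with edgeR.

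In the stromal and secretory lists 0 genes passed as well. All tested members had negative fold changes for fibroblasts (9 genes, median -0.79, led by Col3a1), endothelium (8, -0.88, Pecam1), smooth muscle (6, -0.79, Acta2), enteroendocrine cells (13, -0.82, Gast), parietal cells (8, -3.08, Atp4a) and chief cells (5, -2.32, Pgc). Cblif is counted in both the parietal and the chief cell list. Of 5 antral gland mucous genes 3 were lower, with a median of -0.91, led by Tff2 at 6779 ± 249 CPM in PEEPA-P5 libraries and 6152 ± 747 CPM in vehicle libraries. In the other direction stood 8 of 8 pit cell genes (median 0.33, led by Tff1), 6 of 6 epithelial genes (0.31, Krt8) and 3 of 3 squamous genes (1.42, Krt13), with Krt5 and Krt14 at no more than 1 count in a library. By sign alone the 7 tested tuft genes other than Avil went with the stromal lists and Avil with the pit and epithelial lists, and no difference between lists was tested. A negative sign was shared by 50.6% of all tested genes. The signs of Dclk1, Pou2f3 and Il17rb changed on leaving out 1 library, and Avil was at 0.00 without both libraries numbered 3.

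The wider tuft pathway was read from lists that include the members. Of 16 taste-type signalling genes 11 were tested, and 10 were lower and 1 higher, with a median log2 fold change of -0.62 against -0.00 for all genes. Itpr2, a calcium release channel found in many cells, was at 7.89 ± 2.88 CPM in PEEPA-P5 libraries and 21.7 ± 11.6 CPM in vehicle libraries, with overlapping groups, the single list gene with an unadjusted p under 0.05 (edgeR p 0.0199, adjusted p 0.412). The 1 gene in the other direction was Itpr3, a calcium release channel used by taste and tuft cells, at 589 ± 47.6 CPM in PEEPA-P5 libraries and 501 ± 58.9 CPM in vehicle libraries. Over the 6 libraries Itpr3 averaged 545 CPM against 7.53 CPM for Trpm5, and which cells it came from was not tested. Kctd12 was at 6.12 ± 4.65 CPM in PEEPA-P5 libraries and 8.52 ± 2.39 CPM in vehicle libraries. Gng13, a G protein subunit of taste cells named after its values were seen, was at 0.783, 0.759 and 0.269 CPM with PEEPA-P5, against 2.13, 0.917 and 0.897 CPM with vehicle. It had 98 counts in all. Every PEEPA-P5 library lay below every vehicle library by a small margin, as in 10.7% of tested genes. Its log2 fold change was -1.10 with a standard error of 0.59 (edgeR adjusted p 0.472).

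Of 12 transcription factors 10 were in the table and 8 tested, 5 lower and 3 higher, with a median of -0.27. Spib, an ETS factor of tuft and immune cells, was at 3.83 ± 1.19 CPM in PEEPA-P5 libraries and 5.92 ± 2.43 CPM in vehicle libraries. Sox9 was at 30.0 ± 4.19 CPM in PEEPA-P5 libraries and 42.2 ± 12.5 CPM in vehicle libraries, Chd2 at 40.7 ± 5.28 CPM in PEEPA-P5 libraries and 44.6 ± 8.09 CPM in vehicle libraries, and Runx1 at 50.3 ± 8.76 CPM in PEEPA-P5 libraries and 41.9 ± 1.79 CPM in vehicle libraries. Ascl2 and Etv1 had log2 fold changes of 0.03 and 0.11.

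Of 11 genes for eicosanoids and acetylcholine 8 were in the table and tested, 6 lower and 2 higher, with a median of -0.31. The absent genes, Chat, Slc5a7 and Slc18a3, were all of those for acetylcholine, so only eicosanoid genes were read. Alox5, the 5-lipoxygenase that works with the product of Alox5ap, was at 4.66 ± 3.44 CPM in PEEPA-P5 libraries and 5.77 ± 0.789 CPM in vehicle libraries. Ltc4s, which makes leukotriene C4, was at 11.5 ± 3.50 CPM in PEEPA-P5 libraries and 9.46 ± 2.42 CPM in vehicle libraries, and Ptgs1, cyclooxygenase 1, at 21.9 ± 5.66 CPM in PEEPA-P5 libraries and 17.3 ± 1.78 CPM in vehicle libraries. Pla2g4a, which frees arachidonic acid, and the exporter Abcc1 had log2 fold changes of -0.32 and -0.19. In each of these genes the groups overlapped.

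Of 26 cytoskeletal, adaptor and surface genes 25 were in the table and 23 tested, 15 lower and 8 higher, with a median of -0.09. Reep5, an endoplasmic reticulum protein, was at 188 ± 14.4 CPM in PEEPA-P5 libraries and 151 ± 12.4 CPM in vehicle libraries (edgeR unadjusted p 0.0192, adjusted p 0.412). The broadly epithelial Vil1 was at 366 ± 16.0 CPM in PEEPA-P5 libraries and 247 ± 128 CPM in vehicle libraries and Krt18 at 1403 ± 26.4 CPM in PEEPA-P5 libraries and 1213 ± 61.3 CPM in vehicle libraries, while Krt23 and Cd24a had log2 fold changes of 0.17 and -0.39. Of 17 genes of the interleukin 25 and type 2 circuit 16 were in the table and 10 tested, 4 lower and 6 higher, with a median of 0.08. Areg was at 64.4 ± 8.29 CPM in PEEPA-P5 libraries and 39.8 ± 14.0 CPM in vehicle libraries (edgeR unadjusted p 0.024, adjusted p 0.412). Stat6, Il13ra1, Il33, Traf3ip2 and Il4ra had log2 fold changes of 0.09, 0.26, 0.32, 0.07 and -0.09. The type 2 cytokine genes Il4, Il5 and Il13 had at most 1 count in any library, so a difference in them was not detectable at this depth.

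**Figure D4:**
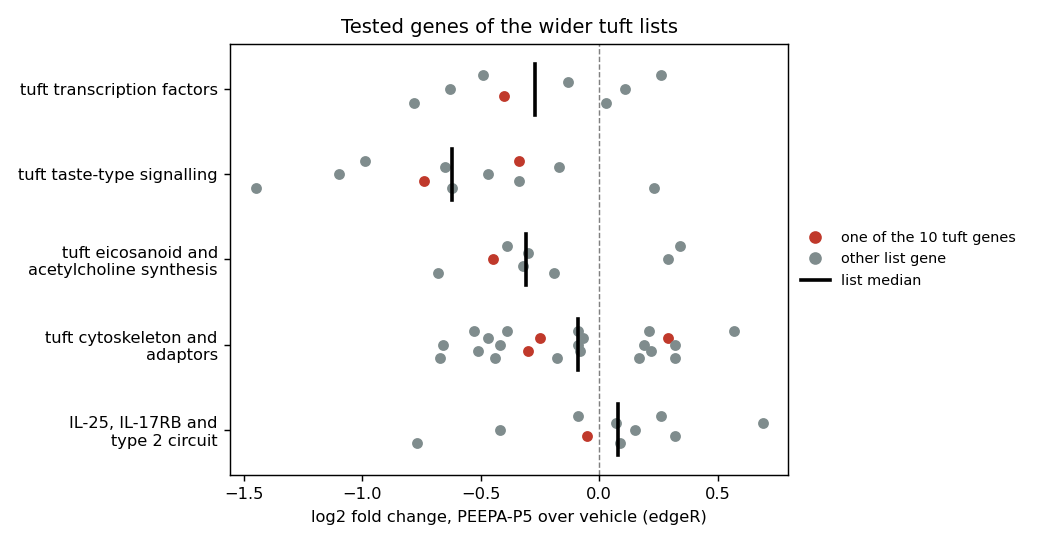
Log2 fold change of PEEPA-P5 over vehicle (horizontal axis) for each tested gene of 5 lists, one list per row, with the tested tuft genes in red, other genes in grey and the list median as a black bar. Medians run from -0.62 for taste-type signalling to 0.08 for the interleukin 25 and type 2 circuit.

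How far 1 library decided these values is shown by leaving each out. With PEEPA-P5 2 left out the median of the 8 tested tuft genes was -0.80, and with PEEPA-P5 3 left out it was -0.04. In that second fit Trpm5, Alox5ap, Plcg2, Pou2f3 and Sh2d6 lay between -0.39 and -0.02, and Dclk1 at 0.15, Avil at 0.15 and Il17rb at 0.23 were positive. Trpm5, Alox5ap, Plcg2 and Sh2d6 kept a negative value and Avil a positive one each time. Dclk1, Pou2f3 and Il17rb changed sign.

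**Figure D5:**
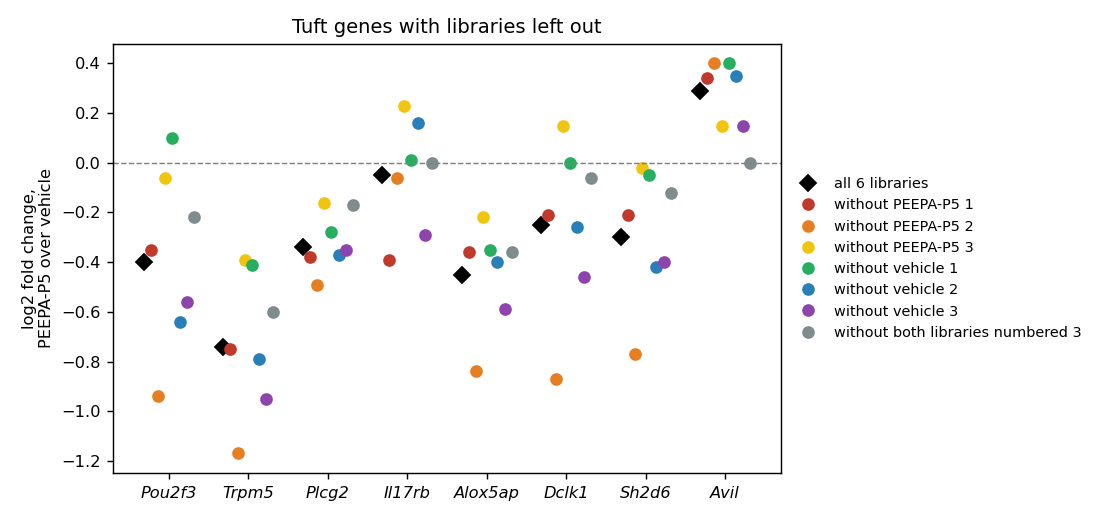
Log2 fold change of PEEPA-P5 over vehicle (vertical axis) for the 8 tested tuft genes (horizontal axis) with all 6 libraries (black diamonds) and with libraries left out (coloured points). Leaving out PEEPA-P5 2 gave the lowest value for 6 genes, among them Trpm5 at -1.17, and leaving out PEEPA-P5 3 or vehicle 1 brought most genes nearer to 0.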

How the data were processed

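Frozen antrum epithelium was extracted with Trizol and total RNA was made into Illumina TruSeq libraries, per the labels' protocols. Bowtie2 2.2.5, RSEM 1.2.12 and mouse build mm9 are listed in the submitters' processing notes, and no source used here states their settings or whether strand was kept. The authors deposited expected counts, FPKM and TPM for every gene and library, per the file headers, and group means. The deposited FPKM and means were not used. Of the deposited expected counts 9.82% were not whole (tolerance 0.001), and all were rounded.

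PEEPA-P5 was compared with vehicle, 3 libraries each, by edgeR 4.0.16 (R 4.3.3) with TMM factors, its expression filter and the robust quasi-likelihood test, adjusted by Benjamini-Hochberg over 13071 genes. CPM uses TMM-scaled sizes. Levels between genes are in TPM. As no label names separate mice, p-values measure the spread between libraries, which may be technical. Reads carry no stated molecular identifiers. The fits were run on simulated counts with the same spread for every gene and large changes only. How they perform on genes as variable as the tuft genes was not tested. The members and lists were chosen with earlier results of these data known. Named genes are the 10 members, up to 6 genes per wider list by mean CPM (at least 1) with any at an unadjusted p under 0.05, the highest gene of each other marker list, and the 6 other genes most like the tested members by Pearson r among genes with at least 5 CPM. Gng13, the marker genes at or near 0 counts and the untested lymphoid markers were named after their values were seen. Alternatives were DESeq2 1.42.0, limma 3.58.1, other factors, filters, TPM pseudocounts of 1 and 0.1, a replicate block and libraries left out. Deviations from group means of same-numbered libraries correlated at 0.237, 0.346 and 0.235, and those of differently numbered libraries at -0.349 to 0.176. Within a group the deviations of a gene cancel out, so positive values for some combinations bring negative ones for others. These correlations therefore cannot establish pairs. The numbers were taken as pairs for the ratios and the replicate block, while the main fit was unpaired. The labels do not say what the numbers mark. Exon overlaps were counted in GENCODE M21.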

Additional observations from a re-analysis of the deposited data

How the results depend on the processing

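Each of the 8 tested tuft genes was refitted under 19 alternatives, 152 values in all, and 0 passed an adjusted p under 0.05 in any of them. Of these values 146 kept their sign and 6 changed it, all on leaving out 1 library. Dclk1 then ran from -0.87 to 0.15 (0.00 without vehicle 1, 0.15 without PEEPA-P5 3), Pou2f3 from -0.94 to 0.10 (0.10 without vehicle 1) and Il17rb from -0.39 to 0.23 (0.01 without vehicle 1, 0.16 without vehicle 2, 0.23 without PEEPA-P5 3). Over the other 13 alternatives Trpm5 ran from -0.86 to -0.54 and Avil from 0.00 to 0.31. The median of the tested members was -0.80 without PEEPA-P5 2, and -0.84 when Avil was not counted, against -0.32 and -0.34 with all libraries. Leaving out each library in turn, these medians ran from -0.80 to -0.02 and from -0.84 to -0.05. Over all genes DESeq2 called 39 higher and 71 lower, where edgeR called 0 and 0. Limma-trend on log2(TPM + 1) without a filter called 1 higher, and leaving out 1 library gave 0 to 1 higher (1 without vehicle 1) and 0 lower. The causes of these differences were not tested. With the replicate block the medians were -0.42 and -0.45 and no call changed; Dclk1 was then at -0.45 and Trpm5 at -0.82 (edgeR unadjusted p 0.0505). Gfi1b and Il25, with 29 and 6 counts in all, did not pass the count filter and were fitted without it alone.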
